A study of Mus musculus with 2 samples.

Results

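The genes described here are 49 members of the Notch and Wnt signalling pathways, 23 of Notch and 26 of Wnt, chosen by symbol and followed through expression profiles of mouse haematopoietic stem cells (HSCs), the cells that renew all blood lineages. All 49 were among the 37820 genes of the gene table, and 46 were among the 28009 genes for which transcripts could be summed in the transcript table; Nrarp, Fzd7 and Fzd8 had no linked transcript there. The study measured polyadenylated RNA by sequencing, to set gene expression beside a comparison of genome folding in fetal and adult HSCs. The adult group, taken from the header to be the BM column, holds HSCs sorted from bone marrow of B6129SF1 mice that were 6 to 8 weeks old, with 2 labelled samples. The fetal column, headed FL, was read as HSCs of embryonic day 14.5 liver from the protocol text; separate fetal samples were not analysed here, and no strain is stated for them in the labels used. No genetic change or treatment is named for either group, nor are the surface markers of the sort or how many animals went into a library.

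Each table holds a single BM and a single FL column in FPKM, fragments scaled to the feature's length and to the library's size. Because of the length scaling, levels of different genes can be set side by side. The columns are read as the authors' means, with no replicate values. No difference below could be tested or weighed against replicate error: "higher" and "lower" describe columns. A gene was called expressed at 1 FPKM or more in either column of a table. The relative log2 ratio is log2((BM + 0.1) / (FL + 0.1)) less its median over the genes reaching 1 FPKM in BM and in FL, and it understates differences of low genes.

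Notch is a receptor cut by proteases when a ligand on a neighbouring cell binds it; the freed intracellular part enters the nucleus, joins the DNA-binding protein Rbpj and the co-activator Maml1, and switches on repressors of the Hes and Hey families. Wnt ligands bind Frizzled receptors with Lrp5 or Lrp6, and the Dishevelled proteins then disable a destruction complex of Axin, Apc and Gsk3b, so that beta-catenin (Ctnnb1) accumulates and acts with Tcf/Lef factors. Notch signalling is known for the emergence of HSCs from embryonic endothelium and for T cell fate, and both pathways are active in endothelium.

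The headers of the 2 tables did not name the same values, and this bears on every result. The gene table's BM column went with the transcript table's FL column: among 31 members at 1 FPKM or more in both, 30 lay within 1.2-fold of each other, against 11 of 30 between the columns headed BM and 5 of 31 between those headed FL. The exception was Tle1, at 9.23 FPKM in BM of the gene table and 6.24 FPKM in FL of the transcript table. Over all genes that share was 82.8% for the matching pair, 30.2% for BM with BM and 24.0% for FL with FL. The BM column of at least 1 table may therefore not hold adult HSCs, and "lower in BM" in the gene table may not mean lower in adult cells. The tables are described apart, by their headers. Their ratios share this profile on opposite sides, so directions in the tables are not independent. All 15 genes of the HSC marker list reached 1 FPKM in BM and FL of the transcript table. They did so in BM of the gene table too, but in FL there the SLAM receptor gene Slamf1 was at 0.652 FPKM. The list includes Cd48, whose protein HSCs usually lack, so its signal does not mark HSCs. Cd48 was at 6.09 FPKM in BM and 25.1 FPKM in FL of the transcript table. In the gene table it was at 26.2 FPKM in BM and 3.83 FPKM in FL. In the transcript table, erythroid markers summed to 50.3 FPKM in BM and 662 FPKM in FL. Macrophage markers summed to 4.52 FPKM in BM and 237 FPKM in FL. Hepatocyte markers summed to 13.4 FPKM in BM and 42.2 FPKM in FL, and neutrophil and monocyte markers to 208 FPKM and 628 FPKM. Stromal markers summed to 14.1 FPKM in BM and 16.3 FPKM in FL, and B cell markers to 16.7 FPKM and 19.6 FPKM. T and NK cell markers summed to 27.4 FPKM in BM and 9.02 FPKM in FL. The number of fragments behind a value is unknown. For genes with a single transcript over 1 kb, the lowest gene table values clustered at 0.0125 FPKM times kilobases in BM and 0.00652 in FL, so a fragment weighs about 1.92 times as much in BM if each step is 1 fragment.

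**Figure D1:**
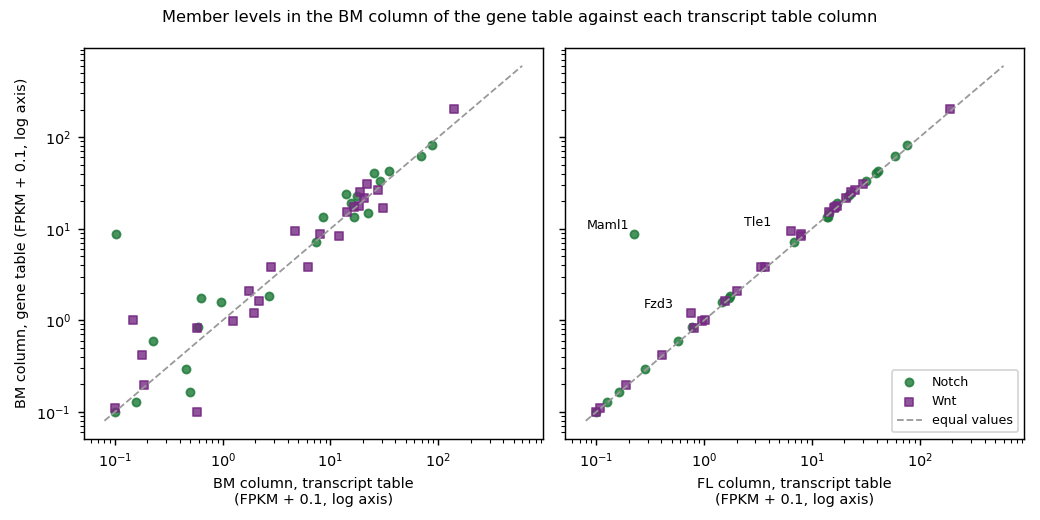
Levels of the 46 members found in both tables, with BM of the gene table on the vertical axis and the BM column (left) or FL column (right) of the transcript table on the horizontal axis, all as FPKM + 0.1 on log axes. Points are genes and the dashed line marks equal values; members lie along the line against FL, apart from Maml1, Tle1 and Fzd3, and scatter around it against BM.

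In the transcript table, Notch and Wnt genes stood at similar levels in the BM and FL columns. Of 15 expressed Notch genes none was at least 2-fold higher in BM, 1 was lower and 14 were within 2-fold, with a median relative log2 ratio of -0.16. Of 18 expressed Wnt genes 1 was higher, none was lower and 17 were within 2-fold, with a median of 0.00. Among all 12220 expressed genes of that table, 13.3% were higher in BM and 8.82% were lower, with a median of 0.02. The 13 linked members under 1 FPKM in both columns were Dll1, Dll4, Jag1, Maml1, Hey1, Hey2 and Heyl of Notch, and Wnt5a, Wnt10b, Fzd1, Rnf43, Axin2 and Lef1 of Wnt. Of 12 endothelial markers 6 were lower in BM of this table, with sums of 194 FPKM in BM and 336 FPKM in FL, and 6 of 7 expressed megakaryocyte markers were higher, with sums of 773 FPKM in BM and 126 FPKM in FL. The part of these cells, and of the other cell types whose marker sums are given above, in the differences that follow was not tested. In bulk RNA, fewer cells of a type and less RNA per cell cannot be told apart.

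**Figure D2:**
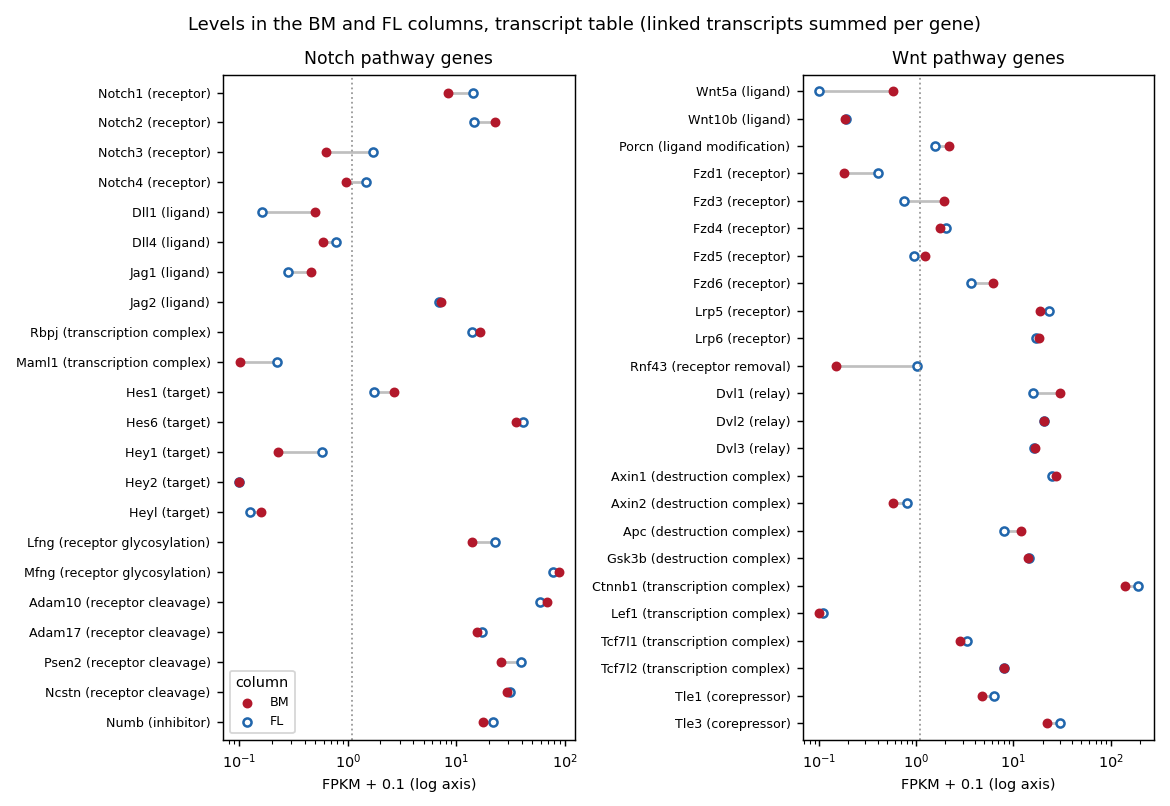
Transcript table levels of the linked Notch genes (left) and Wnt genes (right), with linked transcripts summed per gene, as FPKM + 0.1 on a log axis; filled points are BM, open points are FL, and the dotted line marks 1 FPKM. Most pairs of points overlap or lie close together, and the widest gaps, such as those of Wnt5a and Rnf43, lie under 1 FPKM.

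The Notch receptor genes had a similar summed level in BM and FL but a different make-up in the transcript table. They summed to 32.2 FPKM in BM and 31.3 FPKM in FL. Notch2 was at 22.4 FPKM in BM and 14.4 FPKM in FL, and Notch1 at 8.35 FPKM in BM and 14.0 FPKM in FL. Notch2 thus held 69.7% of the receptor sum in BM and 45.8% in FL, while Notch1 held 26.0% in BM and 44.7% in FL. Neither gene passed 2-fold on its own, with relative log2 ratios of 0.63 and -0.74. Notch3, a receptor best known from vascular smooth muscle, was the lower member, at 0.528 FPKM in BM and 1.59 FPKM in FL (relative log2 ratio -1.43). Notch4, a receptor of endothelium, was at 0.866 FPKM in BM and 1.38 FPKM in FL. Its non-coding transcript Notch4-210 made up 88.8% of that sum in BM and 49.9% in FL, and the coding Notch4-201 was at 0.0794 FPKM in BM and 0.355 FPKM in FL. Notch2 and Notch3 each rest on 1 linked transcript, and for both the FL sum lay within 1.2-fold of the matching gene table value.

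Jag2 supplied most of the signal of the 4 ligand members in both columns. This transmembrane ligand gene was at 7.19 FPKM in BM and 6.80 FPKM in FL. It held 85.2% of their sum in BM and 88.1% in FL. Dlk1, a non-canonical ligand gene outside that sum, was at 2.17 FPKM in BM and 89.7 FPKM in FL. Dll4 was at 0.486 FPKM in BM and 0.675 FPKM in FL, Jag1 at 0.361 FPKM in BM and 0.182 FPKM in FL, and Dll1 at 0.399 FPKM in BM and 0.0624 FPKM in FL. The Dll1 values came from transcripts annotated as retaining an intron, Dll1-203 in BM and Dll1-204 in FL, and not from its coding transcript.

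Mfng and Adam10, which modify and cut the receptors, were the most abundant Notch members. Mfng, a Fringe glycosyltransferase that tunes which ligands the receptor answers, was at 87.4 FPKM in BM and 77.0 FPKM in FL. Its relative Lfng was at 13.9 FPKM in BM and 22.7 FPKM in FL. Mfng held 86.2% of the sum of these 2 genes in BM and 77.2% in FL. Rfng, a Fringe gene outside the members, was at 14.8 FPKM in BM and 16.3 FPKM in FL and is not in that sum. Adam10, the protease of the first ligand-induced cut, was at 68.4 FPKM in BM and 58.8 FPKM in FL. The related protease gene Adam17 was at 15.3 FPKM in BM and 17.0 FPKM in FL. The gamma-secretase genes, which serve the second cut, included Ncstn at 29.0 FPKM in BM and 31.4 FPKM in FL and Psen2 at 25.4 FPKM in BM and 39.4 FPKM in FL. Numb, an endocytic inhibitor of Notch, was at 17.5 FPKM in BM and 21.7 FPKM in FL.

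The nuclear partner was expressed, and the classical targets were low, in both columns. Rbpj was at 16.4 FPKM in BM and 13.8 FPKM in FL. Maml1 was at 0.00224 FPKM in BM and 0.124 FPKM in FL, but in the matching column, BM of the gene table, it was at 8.64 FPKM, so the linked transcripts miss most of the signal of this gene. Hes1, the best-known Notch target, was at 2.57 FPKM in BM and 1.65 FPKM in FL. Hey1 was at 0.128 FPKM in BM and 0.478 FPKM in FL, Heyl at 0.0586 FPKM in BM and 0.0270 FPKM in FL, and Hey2 was listed at 0 in both. Hes6, a family member that counteracts Hes1, was far above them, at 35.0 FPKM in BM and 40.7 FPKM in FL. It held 92.7% of the sum of the 5 linked Hes and Hey members in BM and 95.0% in FL.

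The 2 Wnt ligand members were under 1 FPKM and the receptor side was led by the co-receptors. Outside the members, the ligand gene Wnt6 was at 0.0770 FPKM in BM and 1.16 FPKM in FL. Wnt10b was at 0.0868 FPKM in BM and 0.0907 FPKM in FL. Wnt5a, a ligand of beta-catenin-independent signalling, was at 0.475 FPKM in BM and listed at 0 in FL, and 82.7% of its BM sum came from the non-coding transcript Wnt5a-205. Porcn, the acyltransferase that Wnt secretion needs, was at 2.09 FPKM in BM and 1.47 FPKM in FL. Lrp5 was at 18.8 FPKM in BM and 23.2 FPKM in FL, and Lrp6 at 18.2 FPKM in BM and 16.9 FPKM in FL.

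Frizzled receptors were lower than Lrp5 and Lrp6 in both columns. Fzd6 led the 5 linked Frizzled members, at 6.04 FPKM in BM and 3.56 FPKM in FL. It held 56.2% of their sum in BM and 48.9% in FL. Fzd9, outside the members, was at 2.73 FPKM in BM and 3.74 FPKM in FL, above Fzd6 in FL. Fzd7, Fzd8 and Fzd9 are missing from that sum. In BM of the gene table, which matches FL here, Fzd7 was at 9.28 FPKM and Fzd6 at 3.72 FPKM, so Fzd6 did not lead there. Fzd3 was the Wnt member at least 2-fold higher in BM, at 1.84 FPKM in BM and 0.655 FPKM in FL (relative log2 ratio 1.35). The matching BM column of the gene table held Fzd3 at 1.09 FPKM, 1.66 times that FL sum, so the size of this difference is uncertain. Fzd4 was at 1.66 FPKM in BM and 1.91 FPKM in FL, Fzd5 at 1.14 FPKM in BM and 0.858 FPKM in FL, and Fzd1 at 0.0802 FPKM in BM and 0.304 FPKM in FL. Rnf43, an E3 ligase that removes Frizzleds from the surface, was at 0.0487 FPKM in BM and 0.914 FPKM in FL, under the level called expressed.

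The expressed relay and destruction complex genes were within 2-fold between the columns. Of the Dishevelled genes, Dvl2 was at 20.4 FPKM in BM and 20.7 FPKM in FL and Dvl3 at 16.4 FPKM in BM and 16.3 FPKM in FL. Dvl1 was at 30.3 FPKM in BM and 15.8 FPKM in FL, a relative log2 ratio of 0.92 just inside the 2-fold limit. In the destruction complex, the scaffold gene Axin1 was at 27.3 FPKM in BM and 25.1 FPKM in FL, the kinase gene Gsk3b at 14.0 FPKM in BM and 14.3 FPKM in FL, and Apc at 11.9 FPKM in BM and 7.83 FPKM in FL. Axin2, a scaffold that is itself a widely used target of beta-catenin, was at 0.477 FPKM in BM and 0.702 FPKM in FL.

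Ctnnb1, which encodes beta-catenin, was the most abundant member of both pathways, at 139 FPKM in BM and 193 FPKM in FL. It ranked 469 of 11652 genes at 1 FPKM or more in BM and 420 of 11445 in FL. The factors it works with were low. Tcf7l2 was at 7.92 FPKM in BM and 7.85 FPKM in FL, and Tcf7l1 at 2.73 FPKM in BM and 3.24 FPKM in FL. Lef1 was listed at 0 in BM and at 0.00928 FPKM in FL. The Groucho co-repressor gene Tle3 was at 21.8 FPKM in BM and 29.7 FPKM in FL, and Tle1 at 4.63 FPKM in BM and 6.24 FPKM in FL, with the doubt over Tle1 given above.

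The transcript table also shows which transcripts made up each sum. Of 23 members with several linked transcripts and at least 1 FPKM in both columns, 21 had the same most abundant transcript in BM and FL, and 2, both Tcf/Lef factors, did not. For Tcf7l2 it was the coding transcript Tcf7l2-201 in BM (2.09 FPKM in BM, 1.18 FPKM in FL) and the retained-intron transcript Tcf7l2-206 in FL (0.221 FPKM in BM, 1.89 FPKM in FL). For Tcf7l1 it was Tcf7l1-204 in BM (1.49 FPKM, essentially 0 in FL) and Tcf7l1-201 in FL (1.24 FPKM in BM, 2.29 FPKM in FL). Both genes are low or spread over many models, and such shares are estimates of a fitting procedure.

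Some members with a stable leading transcript differed in the share of a second. Adam10-202, annotated as a target of nonsense-mediated decay, held 10.5% of the Adam10 sum in BM and 28.0% in FL. The coding Adam10-201 was at 58.9 FPKM in BM and 41.8 FPKM in FL. For Ctnnb1, the coding Ctnnb1-201 was at 127 FPKM in BM and 140 FPKM in FL, 91.8% of the sum in BM and 72.1% in FL. The relative log2 ratio of this transcript, -0.14, was thus closer to 0 than that of the gene, -0.49. In Tle3 the non-coding Tle3-216 held 6.24% in BM and 20.8% in FL. In Psen2 the coding Psen2-205 was at 13.7 FPKM in BM and 27.7 FPKM in FL, and in Dvl1 the coding Dvl1-208 at 7.42 FPKM in BM and 2.38 FPKM in FL.

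**Figure D3:**
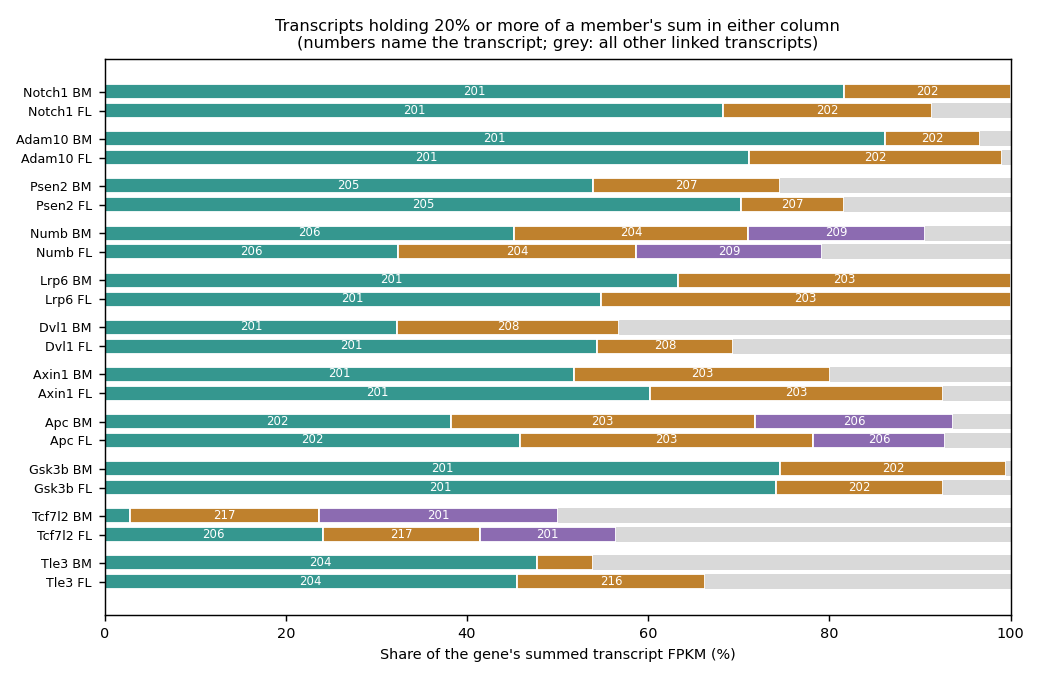
Share (%) of each gene's summed transcript FPKM held by its main transcripts, for the 11 members at 5 FPKM or more in both columns with at least 2 such transcripts; the upper bar of each pair is BM and the lower is FL, and grey is all other linked transcripts. Adam10-202, Tcf7l2-206 and Tle3-216 take a smaller share in BM than in FL.

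In the gene table the same comparison looked different, with many members far lower in the column headed BM than in that headed FL. Of 23 expressed Notch genes 12 were at least 2-fold lower in BM, 2 were higher and 9 were within 2-fold, with a median relative log2 ratio of -1.01. Of 24 expressed Wnt genes 13 were lower, none was higher and 11 were within 2-fold, with a median of -1.22. Among all 13834 expressed genes, 23.6% were lower in BM and 12.3% were higher, with a median of -0.07. The lower share was 52.2% for Notch and 54.2% for Wnt. In BM, 17 Notch and 19 Wnt genes reached 1 FPKM, against 23 and 24 in FL. Over all genes, 12210 reached it in BM and 13029 in FL. Dll1, Dll4, Jag1, Hey1, Hey2, Heyl, Wnt5a, Fzd1, Axin2 and Lef1 counted as expressed through FL alone. The filter itself thus favoured a lower call for these genes. The median gene of this table was shifted by 0.24 (log2) before centring. Without centring, 10 Notch and 12 Wnt genes were lower, with 2 and 0 higher, and over all genes 2376 were higher and 2826 lower, in place of 1708 and 3270.

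**Figure D4:**
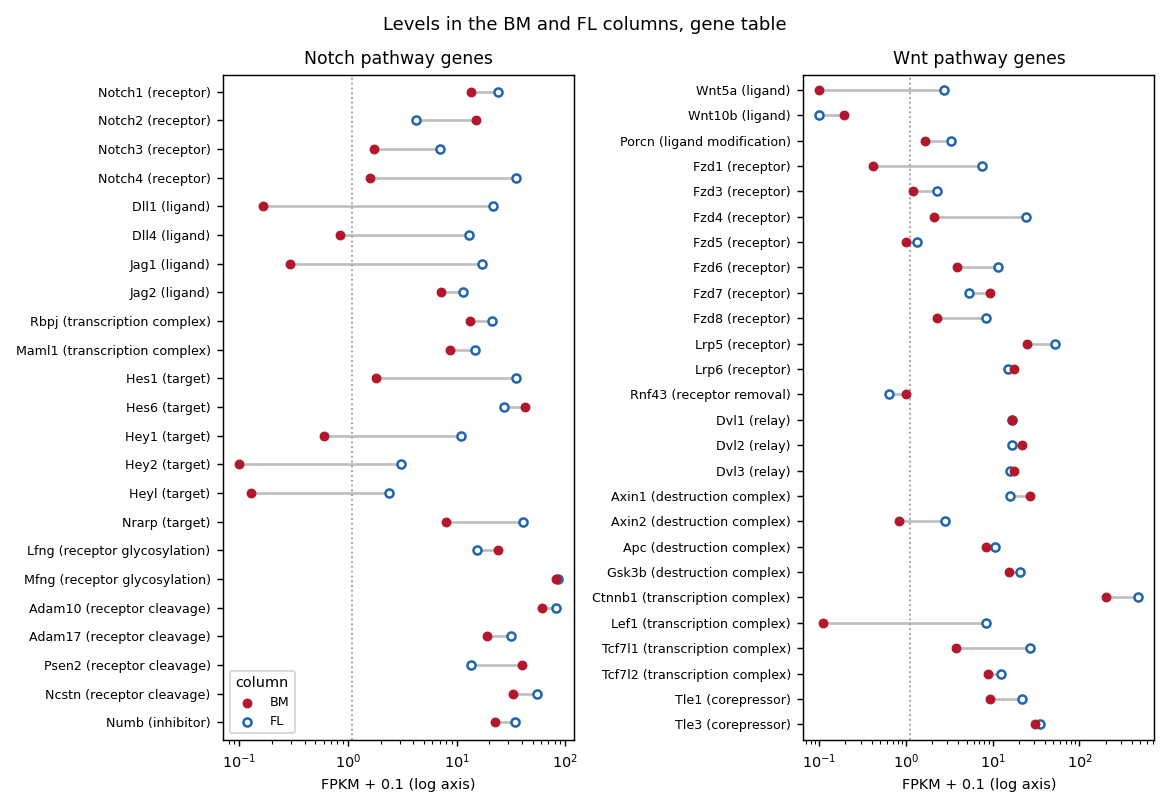
Gene table levels of the 23 Notch genes (left) and 26 Wnt genes (right), as FPKM + 0.1 on a log axis; filled points are BM, open points are FL, and the dotted line marks 1 FPKM. The widest gaps, with FL above BM, are those of Dll1, Jag1, Lef1, Hey2 and Wnt5a, while the Dishevelled genes and Mfng nearly coincide.

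Markers of other cell types differed between the same columns. All 12 endothelial markers were at least 2-fold lower in BM, and they summed to 358 FPKM in BM and 3407 FPKM in FL; the endothelial cadherin gene Cdh5 was at 7.97 FPKM in BM and 457 FPKM in FL. All 10 stromal markers were lower as well, with sums of 17.5 FPKM in BM and 822 FPKM in FL, and the matrix genes Dcn and Lum were listed at 0 in BM. Of 7 expressed hepatocyte markers 3 were higher in BM, 1 was lower and 3 were within 2-fold. Of the blood lineages, 7 of 10 erythroid markers were higher in BM and none was lower, with sums of 408 FPKM in BM and 103 FPKM in FL. Of 10 neutrophil and monocyte markers 8 were higher and 1 was lower, with sums of 666 FPKM in BM and 227 FPKM in FL. Of 8 macrophage markers 4 were higher and 4 lower, with sums of 249 FPKM in BM and 515 FPKM in FL. The genes of the HSC marker list, Cd48 among them, summed to 1189 FPKM in BM and 750 FPKM in FL. The part of these cells in the differences that follow was not tested.

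Of the Notch ligand members 3 of 4 were lower in BM. Dll1 was at 0.0659 FPKM in BM and 21.5 FPKM in FL (relative log2 ratio -7.26), Jag1 at 0.194 FPKM in BM and 17.2 FPKM in FL (-6.12), and Dll4, a ligand of arterial endothelium, at 0.744 FPKM in BM and 12.8 FPKM in FL (-4.17). Jag2 was within 2-fold, at 7.09 FPKM in BM and 11.3 FPKM in FL. It was 87.6% of the sum of these 4 genes in BM and 18.0% in FL, where the sums were 8.10 FPKM in BM and 62.7 FPKM in FL. Dlk1, outside that sum, was at 92.6 FPKM in BM and 125 FPKM in FL (-0.68).

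Of the 6 genes grouped as targets 5 were lower in BM. Hes1 was at 1.73 FPKM in BM and 35.1 FPKM in FL (-4.51) and Hey1 at 0.498 FPKM in BM and 10.9 FPKM in FL (-4.44). Heyl was at 0.0282 FPKM in BM and 2.29 FPKM in FL (-4.46), and Hey2 was listed at 0 in BM and at 3.0 FPKM in FL. Nrarp, a small ankyrin-repeat protein gene that Notch induces and that damps Notch in return, was at 7.84 FPKM in BM and 40.4 FPKM in FL (-2.59). Hes6, placed in this group as a member of the Hes family, was within 2-fold, at 42.2 FPKM in BM and 27.1 FPKM in FL. Its level is not read as a measure of Notch activity.

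**Figure D5:**
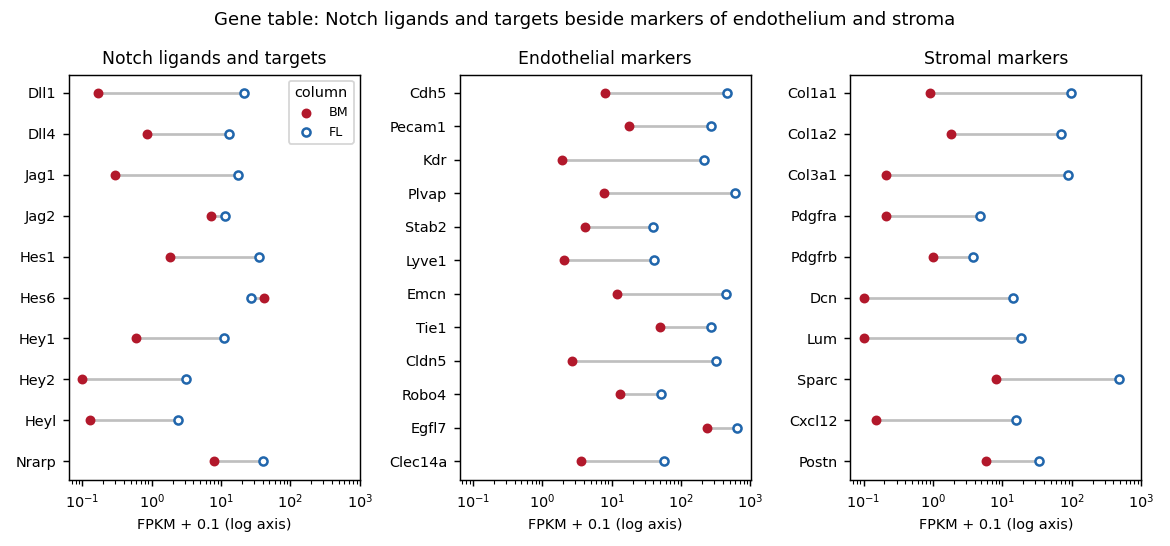
Gene table levels of the Notch ligand genes and the genes grouped as targets (left), endothelial markers (middle) and stromal markers (right), as FPKM + 0.1 on a log axis. Filled points are BM and open points are FL. FL lies above BM for every gene plotted except Hes6.

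The receptors of Notch differed in direction. Notch4 was at 1.5 FPKM in BM and 35.1 FPKM in FL (-4.70), Notch3 at 1.65 FPKM in BM and 6.89 FPKM in FL (-2.24), and Notch1 at 13.4 FPKM in BM and 24.1 FPKM in FL (-1.08). Notch2 was higher in BM, at 14.9 FPKM in BM and 4.14 FPKM in FL (1.58). Notch4 led the receptor genes in FL, where they summed to 31.4 FPKM in BM and 70.2 FPKM in FL, and Notch2 held 47.4% of the sum in BM and 5.90% in FL. The other member higher in BM was Psen2, at 40.1 FPKM in BM and 13.4 FPKM in FL (1.33). Maml1 (8.64 FPKM in BM and 14.8 FPKM in FL, -1.01) and Notch1 lay just past the 2-fold limit and were inside it without centring. Adam17 (19.0 FPKM in BM and 31.5 FPKM in FL, -0.97) and Ncstn (33.0 FPKM in BM and 54.5 FPKM in FL, -0.96) lay just inside it.

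The remaining Notch genes were within 2-fold. Adam10 was at 61.6 FPKM in BM and 82.6 FPKM in FL, Mfng at 82.7 FPKM in BM and 86.1 FPKM in FL, and Lfng at 23.8 FPKM in BM and 15.3 FPKM in FL. Rbpj was at 13.2 FPKM in BM and 21.1 FPKM in FL, and Numb at 22.7 FPKM in BM and 34.1 FPKM in FL.

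Of the 13 Wnt genes lower in BM of the gene table, 6 were receptors or co-receptors, 3 were Ctnnb1, Lef1 and Tcf7l1, and the others were Wnt5a, Porcn, Axin2 and Tle1. Lef1, a factor also known from lymphocytes, was at 0.0102 FPKM in BM and 8.27 FPKM in FL (-6.49), and Tcf7l1 at 3.69 FPKM in BM and 26.5 FPKM in FL (-3.05). Tcf7l2 was within 2-fold, at 8.76 FPKM in BM and 12.4 FPKM in FL, and held 70.3% of the sum of these 3 genes in BM and 26.3% in FL. Ctnnb1 was at 202 FPKM in BM and 479 FPKM in FL (-1.49), rank 473 of 12210 genes in BM and 153 of 13029 in FL. Axin2 was at 0.729 FPKM in BM and 2.71 FPKM in FL (-2.00).

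The 7 Frizzled members summed to 19.5 FPKM in BM and 59.4 FPKM in FL. Outside that sum were Fzd2 (0.464 FPKM in BM and 7.65 FPKM in FL), Fzd9 (3.89 FPKM and 2.82 FPKM) and Fzd10 (3.2e-07 FPKM and 5.41 FPKM). Fzd4, a receptor of retinal vessel growth, was at 1.98 FPKM in BM and 23.8 FPKM in FL (-3.77), Fzd1 at 0.316 FPKM in BM and 7.38 FPKM in FL (-4.41), and Fzd8 at 2.20 FPKM in BM and 8.27 FPKM in FL (-2.10). Fzd6 was at 3.72 FPKM in BM and 11.3 FPKM in FL (-1.81), and Fzd3 at 1.09 FPKM in BM and 2.18 FPKM in FL (-1.18). Fzd7 ran the other way within 2-fold, at 9.28 FPKM in BM and 5.21 FPKM in FL. It was the leading Frizzled gene in BM with 47.7% of the sum of the 7 members, against 8.77% in FL. Fzd5 was at 0.890 FPKM in BM and 1.23 FPKM in FL. Of the co-receptors, Lrp5 was lower, at 25.0 FPKM in BM and 51.9 FPKM in FL (-1.29), and Lrp6 was at 17.7 FPKM in BM and 14.9 FPKM in FL.

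The ligand members stayed low in BM of the gene table. Wnt5a was listed at 0 in BM and at 2.67 FPKM in FL, Wnt10b was at 0.0943 FPKM in BM and listed at 0 in FL, and Porcn was at 1.54 FPKM in BM and 3.23 FPKM in FL (-1.27). Tle1 was at 9.23 FPKM in BM and 21.8 FPKM in FL (-1.47). The Dishevelled genes, and Axin1, Apc and Gsk3b of the destruction complex, were within 2-fold, unlike Axin2. Dvl1 was at 16.7 FPKM in BM and 16.5 FPKM in FL, Dvl2 at 21.7 FPKM in BM and 16.6 FPKM in FL, and Dvl3 at 17.3 FPKM in BM and 15.5 FPKM in FL. Axin1 was at 26.5 FPKM in BM and 15.6 FPKM in FL, Apc at 8.23 FPKM in BM and 10.5 FPKM in FL, and Gsk3b at 15.3 FPKM in BM and 20.6 FPKM in FL. Tle3 was at 30.5 FPKM in BM and 35.0 FPKM in FL, and Rnf43 at 0.910 FPKM in BM and 0.538 FPKM in FL.

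Promoter sequence was read for members that were lower together in BM of the gene table. RefSeq promoters of build GRCm38.p6, 250 bases before to 50 after a start, were matched for 36 members, 16 of them lower in BM. The letters GTGGGAA, the core that Rbpj binds, were searched on both strands and stood in promoters of 3 of these 16 genes, Hey2, Lef1 and Tcf7l1. They stood in 6 of 48 promoters of all matched members (12.5%) and in 6.38% of all 32851 promoters. These 6 promoters belong to 5 genes, because overlapping Lef1 windows hold the same letters. The counts out of 16 are of genes, which can have several promoters, and the percentages are of promoters. No promoter was matched for the target genes Hes1, Hey1 and Heyl. The letters CTTTGA, the core that Tcf/Lef factors bind, stood in promoters of 4 of the 16, Fzd1, Jag1, Lef1 and Maml1, in 6 of the 48 (12.5%) and in 16.0% of all promoters. No member's window held both motifs. These 4 windows are shown, each of a gene more than 4-fold lower in BM of the gene table; capitals mark either motif or its reverse complement, and each is written 5′ to 3′ on the gene's strand.
Hey2 promoter, chr10:30842734-30843033 (- strand): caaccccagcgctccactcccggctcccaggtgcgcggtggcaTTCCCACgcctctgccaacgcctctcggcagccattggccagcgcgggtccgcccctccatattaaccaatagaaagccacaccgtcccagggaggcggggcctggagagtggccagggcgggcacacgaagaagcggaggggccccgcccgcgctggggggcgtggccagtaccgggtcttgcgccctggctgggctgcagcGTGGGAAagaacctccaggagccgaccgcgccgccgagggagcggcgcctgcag
Tcf7l1 promoter, chr6:72788996-72789295 (- strand): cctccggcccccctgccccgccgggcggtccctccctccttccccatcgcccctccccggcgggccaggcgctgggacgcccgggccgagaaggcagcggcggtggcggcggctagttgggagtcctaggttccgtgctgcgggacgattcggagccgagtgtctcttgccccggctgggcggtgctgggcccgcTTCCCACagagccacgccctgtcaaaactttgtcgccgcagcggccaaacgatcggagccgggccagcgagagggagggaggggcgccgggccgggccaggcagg
Lef1 promoter, chr3:131110047-131110346 (+ strand): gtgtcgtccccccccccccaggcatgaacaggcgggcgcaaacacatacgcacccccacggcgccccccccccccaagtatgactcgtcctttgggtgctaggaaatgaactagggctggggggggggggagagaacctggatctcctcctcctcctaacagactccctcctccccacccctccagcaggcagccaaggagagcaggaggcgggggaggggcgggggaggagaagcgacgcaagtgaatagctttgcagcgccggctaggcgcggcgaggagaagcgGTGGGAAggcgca
Jag1 promoter, chr2:137116471-137116770 (- strand): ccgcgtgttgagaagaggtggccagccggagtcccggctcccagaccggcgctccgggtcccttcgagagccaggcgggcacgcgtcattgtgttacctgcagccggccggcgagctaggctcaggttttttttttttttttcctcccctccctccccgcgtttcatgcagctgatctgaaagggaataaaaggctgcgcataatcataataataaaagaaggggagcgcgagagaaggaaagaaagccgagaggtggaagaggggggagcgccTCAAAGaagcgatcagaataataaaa
The Hey2 window holds 2 Rbpj cores, starting at positions -207 and -4 from the gene's start. Tcf7l1 holds 1 at position -55 and Lef1 holds 1 at position 38. Jag1 holds 1 Tcf/Lef core at position 25. A match is a run of letters and not a measured binding site.

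Pathway genes outside the 49 were followed as lists of 39 Notch and 75 Wnt genes. In the transcript table, 33 of the other Notch genes were expressed, 5 higher in BM and 2 lower, with a median relative log2 ratio of 0.26. The lowest was Dlk1, a non-canonical ligand gene, at 2.17 FPKM in BM and 89.7 FPKM in FL (-5.31), and the highest was the gamma-secretase gene Aph1b, at 2.46 FPKM in BM and 1.10 FPKM in FL (1.09). Of 34 expressed other Wnt genes 5 were higher and 4 lower (median -0.08). The Groucho-related genes Tle2 (25.9 FPKM in BM and 2.48 FPKM in FL, 3.33) and Tle6 (39.6 FPKM in BM and 5.81 FPKM in FL, 2.74) were the highest, and the Wnt antagonist gene Dkk1 (0.0268 FPKM in BM and 1.71 FPKM in FL, -3.84) the lowest.

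In the gene table, 35 of the other Notch genes were expressed, 1 higher in BM and 6 lower (median -0.05). Among all expressed genes 12.3% were higher and 23.6% lower. The lower share was 17.1% for these other Notch genes, against 52.2% for the Notch members. Hes5, a further target gene, was the highest of the other Notch genes, at 1.77 FPKM in BM and 0.214 FPKM in FL (2.33). Of 47 expressed other Wnt genes 1 was higher, 26 were lower and 20 were within 2-fold (median -1.17). Their lower share was 55.3%, and 32 of them reached 1 FPKM in BM against 47 in FL. The higher gene was Myc, a transcription factor gene that beta-catenin can induce, at 133 FPKM in BM and 29.6 FPKM in FL (1.92). Among the lowest were Rspo3, a ligand that strengthens Wnt signalling, at 0.10 FPKM in BM and 6.77 FPKM in FL (-5.34), and the secreted antagonist gene Sfrp1 at 0.265 FPKM in BM and 9.61 FPKM in FL (-4.97). The endothelial and stromal markers given above were lower in the same column.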

How the data were processed

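Per the labels, RNA of sorted HSCs was selected for poly(A), made into NEBNext Ultra libraries of unstated strand, and sequenced on paired ends. The authors deposited FPKM values in a gene table and a transcript table; TopHat, Cufflinks, featureCounts, Subread, edgeR and build mm9 are listed in the submitters' processing notes, without roles or versions. FPKM shifts when a few abundant genes change, and values of transcripts that share exons are model estimates.

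Identifiers were matched to symbols through GENCODE M21, a later build, without coordinates; 76507 of 87641 transcripts were linked and summed per gene. A pseudocount of 0.1 FPKM, a detection level of 1 FPKM and a limit of 2-fold were used; the ratio was tested on simulated data. Of 212 other list genes, 211 were found in the gene table and 210 in the transcript table. The 49 members and all lists were chosen with earlier results of these data known. Named outside the members are the 3 genes at either end of a list, in part, marker genes, and Rfng, Fzd2 and Fzd9. The Slamf1, Cd48, Cdh5, Dcn, Lum, Rfng, Fzd2 and Fzd9 values were picked after they were seen. Python 3.11.15, numpy 2.4.6, pandas 2.3.3 and matplotlib 3.10.9 were used. Alternatives covered pseudocount, filter, centring, fold limit and choice of transcripts.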

Additional observations from a re-analysis of the deposited data

How the results depend on the processing

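Of 120 values under alternatives, 95 kept within 1.5 times the main count or 0.58 (log2) of the main median. A change of sign was looked for only in the gene table medians, -1.01 for Notch and -1.22 for Wnt, and neither changed sign. Counts, and the transcript table medians near 0.00, could not show such a change. The medians of Notch and Wnt moved by less than that limit under every alternative tried. The counts of the transcript table are small and moved easily. Notch genes higher in BM numbered 0, and 2 at a limit of 1.5-fold, 1 with expression set at 0.1 FPKM and 1 with no filter. Notch genes lower in BM numbered 1, and 5 at 1.5-fold, 0 at 4-fold, 3 at 0.1 FPKM, 3 with no filter, 0 at 5 FPKM, 0 with a pseudocount of 1 and 2 from coding transcripts. Wnt genes higher numbered 1, and 4 at 1.5-fold, 0 at 4-fold, 2 at 0.1 FPKM, 2 with no filter, 0 at 5 FPKM, 0 with a pseudocount of 1, 2 with upper-quartile scaling, 2 from the most abundant transcript alone, and 0 among members whose FL sum matched the gene table, an alternative chosen after seeing the data. Wnt genes lower numbered 0, and 2 at 0.1 FPKM and 2 with no filter. In the gene table, at 4-fold, Notch genes higher were 0 in place of 2 and Wnt genes lower 7 in place of 13. Members with a different leading transcript were 1 at 5 FPKM and 1 from coding transcripts, in place of 2. No paired analysis was possible because each column is a single mean with no replicate values, so no replicate could be left out either. Antisense and overlapping transcripts cannot be told apart where the libraries do not keep strand.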
